A study of Mus musculus with 4 samples.

Results

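The cytosolic ribosomal protein genes were read in mouse hearts on the day of birth, in 2 libraries from hearts lacking both myocardin-related transcription factors (MRTFA/B double knockout) and in 2 wild type libraries. Members were the protein-coding genes whose symbol begins with Rpl or Rps followed by a digit, together with Rplp0, Rplp1, Rplp2 and Rpsa. Symbols of the Rps6k kinases and of pseudogenes were left out. This gave 86 of the 43346 gene rows in each file. They comprised 31 canonical small subunit genes, 43 canonical large subunit genes, 3 genes of the large subunit stalk, 8 genes for paralogs or like proteins and Rps19bp1. The last shares the prefix only, since its product binds RPS19 and is not a ribosomal subunit. The labels give the strain background as Mixed for both double knockout libraries and as ICR for both wild type libraries, so genotype and background cannot be told apart. They name neither the deleted exons nor a Cre driver, and they do not say that the libraries of a group came from separate animals. The p-values then reflect variation among these 4 libraries and possibly no more than technical variation.

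Each ribosome carries one copy of nearly every ribosomal protein, joined to ribosomal RNA in a small subunit that decodes the message and a large subunit that forms peptide bonds. Most of the genes start transcription within a run of pyrimidines, the terminal oligopyrimidine (TOP) motif, through which growth signals set the translation of the whole group. Mammalian genomes also hold many processed pseudogenes of these genes, which are copies of spliced messages without introns. A short read can match a gene and its copies equally well, and such reads were counted in a way not given in the sources used here.

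Total counts were 27328195 and 16175259 in the double knockout libraries and 29460641 and 25205257 in the wild type libraries. A count of 3 corresponded to 0.106 to 0.184 CPM (counts scaled to a common library size), adjusted by the trimmed mean of M-values (TMM) method. All 12 cardiomyocyte markers were detected and summed to 56450 and 53090 CPM in double knockout hearts and to 60270 and 58360 CPM in wild type hearts. Of the targeted genes, Mrtfa had 3.35 and 2.26 CPM in double knockout hearts, against 9.06 and 11.1 CPM in wild type hearts, a difference of -1.82 on the log2 scale (SE 0.26, edgeR adjusted p = 0.12, DESeq2 adjusted p = 1.21e-05). Mrtfb had 46.0 and 49.6 CPM in double knockout hearts, against 46.9 and 56.8 CPM in wild type hearts, but counts over a whole gene do not check a deletion of some exons.

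Ribosomal protein genes took a somewhat larger share of the reads in double knockout hearts than in wild type hearts. The 86 genes held 0.316% and 0.338% of the counts in the double knockout libraries, against 0.285% and 0.279% in the wild type libraries. The groups did not overlap, and both double knockout libraries were the higher ones. The means were 0.327% ± 0.0156 in double knockout and 0.282% ± 0.00392 in wild type (SD, n = 2 each), a ratio of 1.16. A two-sided exact permutation test gave p = 0.333, the smallest value that 2 libraries against 2 allow. With mitochondrial and erythroid counts left out of the total, the ratio was 1.14. These shares are of counts not adjusted by TMM. On the TMM scale the 86 genes summed to 3046 and 3346 CPM in double knockout. In wild type they summed to 2957 and 2829 CPM, so double knockout library 1 lay close to wild type library 1. In bulk tissue, fewer or more cells of a type and a different amount of RNA per cell cannot be told apart.

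The reads on the group were very unevenly spread. The 6 most counted genes held 52.2% to 53.7% of all member counts, and 21 genes had a mean under 50 counts per library. Scaled to transcript length, the highest levels of genes alone included those of Rpl4, Rps9, Rpl8, Rpl22 and Rps3. Rpl8 has no near-identical copy, as defined below, and Rpl4, Rps9, Rpl22 and Rps3 have 1 each, against a median of 5 per member. Alone, Rpl3 stood at 3.63 and 3.4 CPM per kb in double knockout, but with its copies at 191 and 200 CPM per kb. The order of genes alone may therefore not be an order of expression, and the part of copies in it was not tested. Rpl4, which lines the exit tunnel, was at 330.3 and 344 CPM per kb in double knockout and at 306 and 289 CPM per kb in wild type. Rps9, a protein of the small subunit body, was at 338 and 352 CPM per kb in double knockout, against 291 and 263 CPM per kb in wild type. At the other end, 9 genes averaged under 1 CPM, among them the canonical subunit genes Rps27 and Rpl24. Rpl24 shares 47.0% of its exon bases with other annotated genes, and Rpl23a shares 62.3%. For Rpl24 and Rpl23a, most of the joint reads of each gene and its near-identical copies also fell on the copies. Across the libraries Rpl24 held 3.28% to 8.01% of these reads and Rpl23a 1.41% to 4.13%.

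**Figure D1:**
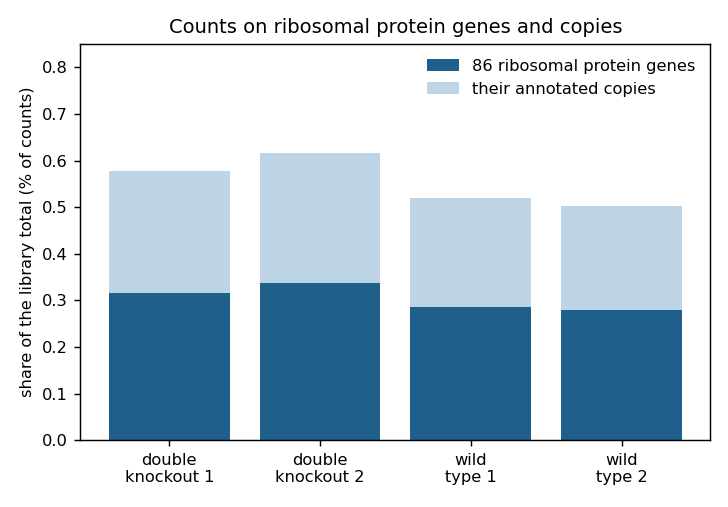
Share of all counts (%) on the 86 ribosomal protein genes (dark) and on their annotated copies (light) in each library, 1 bar per library. Genes and copies together take 0.578% and 0.617% in the double knockout libraries and 0.519% and 0.502% in the wild type libraries.

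No single ribosomal protein gene passed the edgeR quasi-likelihood test at an adjusted p under 0.05, with 83 genes tested. Over all 16009 genes tested, 0.075% passed. The smallest adjusted p among the members was 0.121, for Rps3a1. In 7 members (8.43%, against 17.3% of all genes) the unadjusted edgeR p was under 0.05. Of these 5 were higher in double knockout, as were 8.70% of all genes, and 2 were lower, as were 8.63% of all genes. DESeq2 called 1 member higher, Rps3a1, against 3.81% of all genes called and 2.01% called higher, and limma-voom called 0, with a smallest adjusted p of 0.115 and 0.0687% of all genes called. Rpl35, Rpl39l and Rpl10l did not pass the filter on low counts. Rpl10l, a testis paralog, had 0 counts in all 4 libraries.

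The log2 fold changes of the members were small and mostly positive. Their median was 0.15, against 0.01 over all genes tested, and 57 of 83 were positive (68.7%, against 51.3% of all genes). Leaving out wild type library 2 gave a median of 0.04, with 45 of 84 positive. Leaving out wild type library 1 gave 0.21, and leaving out double knockout library 1 gave 0.11. The double knockout pair was above the wild type pair in 32 members (38.6%, against 25.8% of all genes) and below it in 10 (12%, against 25.2%). The 95% interval of the fold change lay within -1 and 1 for 65 of 83 members, or 78.3%, against 67.5% of all genes. Small subunit genes had a median of 0.22 with 25 of 31 positive, and large subunit genes a median of 0.12 with 28 of 42 positive. Relative to the wild type mean, the small subunit median was 0.10 in double knockout library 1 and 0.26 in library 2. The large subunit median was 0.16 in double knockout library 1 and 0.04 in library 2, so the libraries differed in the order. The 6 tested genes for paralogs or like proteins had a median of -0.12, with 2 positive. These differences between classes were not tested. The order of the small and large subunit medians was the reverse once near-identical copies were added, as given below.

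The 4 lowest and the 4 highest log2 fold changes belonged to genes with near-identical copies, and so do most members. A copy was an annotated gene matching at least 50% of the coding sequence of a member at 95% identity or more. By this measure 80 of the 86 members had at least 1 copy, 18 had 10 or more, and Rpl21 had the most, 59. The 6 members with none included Rpl3l, Rpl8, Rpl39l, Rps27l and Rps19bp1. In the files 443 copies of 73 members could be added to the counts of their gene, 433 of them annotated as processed pseudogenes and 9 as protein coding. In 47 members the copies held more reads than the gene. Copies held 45.4% and 45.2% of the joint counts in the double knockout libraries, against 45.2% and 44.4% in the wild type libraries.

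Of these extremes 4 are shown, each with 1 of its copies, chosen after their values were seen, because gene and copy divided their reads unequally between the groups or libraries. Each pair of lines gives the same 60 bases of coding sequence, 5′ to 3′, from GENCODE M21 transcripts (mm10). Capitals mark the bases that differ. For Rplp0 (chromosome 5, 115559467 to 115563727, plus strand) and Gm8730 (chromosome 8, 102864845 to 102865798, minus strand) they are coding bases 388 to 447, and the pair is 98.74% identical over 954 bases.
Rplp0: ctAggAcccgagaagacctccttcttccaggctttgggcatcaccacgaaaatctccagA
Gm8730: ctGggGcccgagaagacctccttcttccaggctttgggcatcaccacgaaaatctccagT
For Rps3a1 (chromosome 3, 86137940 to 86142702, minus strand) and Rps3a3 (chromosome 13, 108670603 to 108671397, plus strand) they are coding bases 201 to 260, and the pair is 98.87% identical over 795 bases.
Rps3a1: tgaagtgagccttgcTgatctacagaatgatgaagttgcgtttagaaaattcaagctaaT
Rps3a3: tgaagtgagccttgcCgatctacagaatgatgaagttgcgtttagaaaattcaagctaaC
For Rpl3 (chromosome 15, 80077791 to 80091868, minus strand) and Rpl3-ps1 (chromosome X, 13202571 to 13203780, plus strand) they are coding bases 1 to 60, and the pair is 99.83% identical over 1209 bases.
Rpl3: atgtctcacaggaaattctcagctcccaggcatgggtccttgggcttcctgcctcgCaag
Rpl3-ps1: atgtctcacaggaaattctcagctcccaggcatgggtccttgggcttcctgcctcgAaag
For Rpl29 (chromosome 9, 106429454 to 106431568, plus strand) and Gm8210 (chromosome 1, 43189156 to 43189638, plus strand) they are coding bases 13 to 72, and the pair is 99.38% identical over 483 bases.
Rpl29: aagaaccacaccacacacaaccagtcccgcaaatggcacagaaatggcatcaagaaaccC
Gm8210: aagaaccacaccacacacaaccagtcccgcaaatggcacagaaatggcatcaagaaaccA
Between 1 and 3 bases in 60 differ in these stretches, which are the gap-free stretches with the most differences in each pair.

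Among the stalk genes, Rplp0 showed the division most plainly. Its product anchors the stalk that recruits translation factors, and its message is widely used as a reference in quantitative PCR. Rplp0 had 34.7 and 96.5 CPM in the double knockout libraries, against 119 and 122 CPM in the wild type libraries. Double knockout library 1 was far below library 2, and both lay below wild type. The log2 fold change was -0.88 (SE 0.48, edgeR adjusted p = 0.417), and it was -0.32 without double knockout library 1 (edgeR adjusted p = 0.0794), -1.80 without double knockout library 2 (edgeR adjusted p = 2.64e-06), -0.90 when wild type library 1 was dropped (edgeR adjusted p = 0.971) and -0.88 when wild type library 2 was dropped (edgeR adjusted p = 0.795). Of all genes, edgeR called 17.1% without double knockout library 1, 8.24% without double knockout library 2, 0.0121% with wild type library 1 dropped and 0.018% with wild type library 2 dropped.

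The main copies of Rplp0 were higher in double knockout. Gm8730 had 125 and 106 CPM in the double knockout libraries, against 58.7 and 56.0 CPM in the wild type libraries, a log2 fold change of 1.01 (SE 0.12, adjusted p = 0.0957 by edgeR, DESeq2 adjusted p = 4.33e-06). Gm9625 had 63.0 and 51.0 CPM in double knockout and 28.6 and 30.2 CPM in wild type (0.96, SE 0.14, edgeR adjusted p = 0.121, DESeq2 adjusted p = 2.17e-04). The 2 copies did not overlap between the groups and passed DESeq2 but not edgeR. Of all genes, 25.8% had both double knockout libraries above both wild type libraries, and DESeq2 called 2.01% higher. Rplp0 held 15.5% and 38.0% of the joint reads of gene and copies in double knockout, against 57.6% and 58.5% in wild type. Summed, gene and copies had 223 and 254 CPM in double knockout and 206 and 209 CPM in wild type, a log2 fold change of 0.20 (SE 0.11, adjusted p = 0.417 by edgeR).

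The other stalk proteins form the flexible dimers carried by Rplp0. Rplp1 had 71.4 and 88.1 CPM in double knockout and 57.7 and 69.1 CPM in wild type, a log2 fold change of 0.33 (SE 0.15, adjusted p = 0.334 by edgeR), and 0.11 (SE 0.16) with its copies. With a library left out it was 0.17 to 0.47 and passed edgeR in 1 of the 4 cases, without double knockout library 1 (adjusted p = 0.0245, against 0.47 to 0.971 in the others). Rplp2 had 3.98 and 3.30 CPM in double knockout and 3.52 and 2.13 CPM in wild type (0.37, SE 0.31, edgeR adjusted p = 0.587), and the groups overlapped.

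Among small subunit genes, Rps3a1 alone was called by DESeq2. Its product is a surface protein of the small subunit that also takes part in initiation. Rps3a1 had 24.4 and 28.3 CPM in the double knockout libraries, against 14.2 and 13.1 CPM in the wild type libraries. The groups were well apart, with a log2 fold change of 0.94 (SE 0.15, adjusted p = 0.121 by edgeR, DESeq2 adjusted p = 0.00124). It was 1.05 without double knockout library 1 (edgeR adjusted p = 4.25e-04) and 0.83 without double knockout library 2 (edgeR adjusted p = 0.00592). Leaving out wild type library 1 gave 1.0 (edgeR adjusted p = 0.971) and leaving out wild type library 2 gave 0.87 (edgeR adjusted p = 0.562).

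The pseudogene Rps3a3 was lower in double knockout over the same samples. It had 18.6 and 18.0 CPM in the double knockout libraries, against 52.9 and 40.4 CPM in the wild type libraries (-1.35, SE 0.17, edgeR adjusted p = 0.0957, DESeq2 adjusted p = 3.50e-07). Rps3a1 held 38.6% and 39.9% of the joint reads of gene and copies in double knockout, against 16.9% and 19.1% in wild type. Summed, gene and copies had 63.1 and 71.0 CPM in double knockout and 84.3 and 68.7 CPM in wild type. The groups overlapped, and the log2 fold change was -0.19 (SE 0.14, edgeR adjusted p = 0.523).

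Rps14, whose human counterpart lies in the region lost in the 5q- syndrome, kept its value when its 1 counted copy was added. It had 82.8 and 90.5 CPM in double knockout and 60.3 and 69.3 CPM in wild type, a log2 fold change of 0.42 (SE 0.12, adjusted p = 0.189 by edgeR) alone and 0.41 (SE 0.12) with the copy. With a library left out the gene alone was at 0.32 to 0.51 and passed edgeR in 1 of the 4 cases, without double knockout library 1 (adjusted p = 0.0159, against 0.0939 to 0.971 in the others). Rps9 had 254 and 264 CPM in double knockout and 218 and 198 CPM in wild type, and its value was 0.32 (SE 0.11, edgeR adjusted p = 0.239). No copy of Rps9 was added to it. Rps3 was at 0.14 (SE 0.13) and Rps4x at 0.26 (SE 0.14). Rps27, at 0.423 and 0.612 CPM in double knockout and 0.212 and 0.362 CPM in wild type, had too few counts for a firm value (0.81, SE 0.51).

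Rpl3 was the lowest of the large subunit genes. It encodes a protein close to the peptidyl transferase centre, and the gene lies 920.4 kb from Mrtfa on chromosome 15. Rpl3 had 139 and 75 counts in the double knockout libraries, against 188 and 385 counts in the wild type libraries. Wild type library 2 stood apart from the other 3. The log2 fold change was -1.21 (SE 0.42, edgeR adjusted p = 0.244), and -0.49 without wild type library 2.

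Most reads of this pair fell on the pseudogene. Rpl3-ps1 had 254 and 265.5 CPM in double knockout and 257 and 158 CPM in wild type, and Rpl3 held 1.90% and 1.70% of the joint reads of gene and copies in double knockout, against 2.51% and 8.70% in wild type. In wild type library 2 the gene was highest and the pseudogene lowest. Summed, gene and copies were at 259 and 270.5 CPM in double knockout and at 264 and 178 CPM in wild type (0.26, SE 0.20, edgeR adjusted p = 0.539).

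Rpl29, a surface protein of the large subunit, had the largest positive value. It had 343 and 212 counts in the double knockout libraries, against 175 and 6 counts in the wild type libraries. Scaled to depth, both wild type libraries were lower, and library 2 was almost without reads. The log2 fold change was 1.94 (SE 1.1, edgeR adjusted p = 0.433), 1.01 when wild type library 2 was left out and 5.66 when library 1 was left out. Its copy Gm8210 had 0.282 and 0.0612 CPM in double knockout, against 2.61 and 4.02 CPM in wild type (-4.04, SE 0.55, edgeR adjusted p = 0.12, DESeq2 adjusted p = 6.30e-06). The gene with the 21 copies added to it, of 30 annotated, was at 16.3 and 17.5 CPM in double knockout and at 11.3 and 4.62 CPM in wild type, a log2 fold change of 1.08 (SE 0.42, adjusted p = 0.283 by edgeR).

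**Figure D2:**
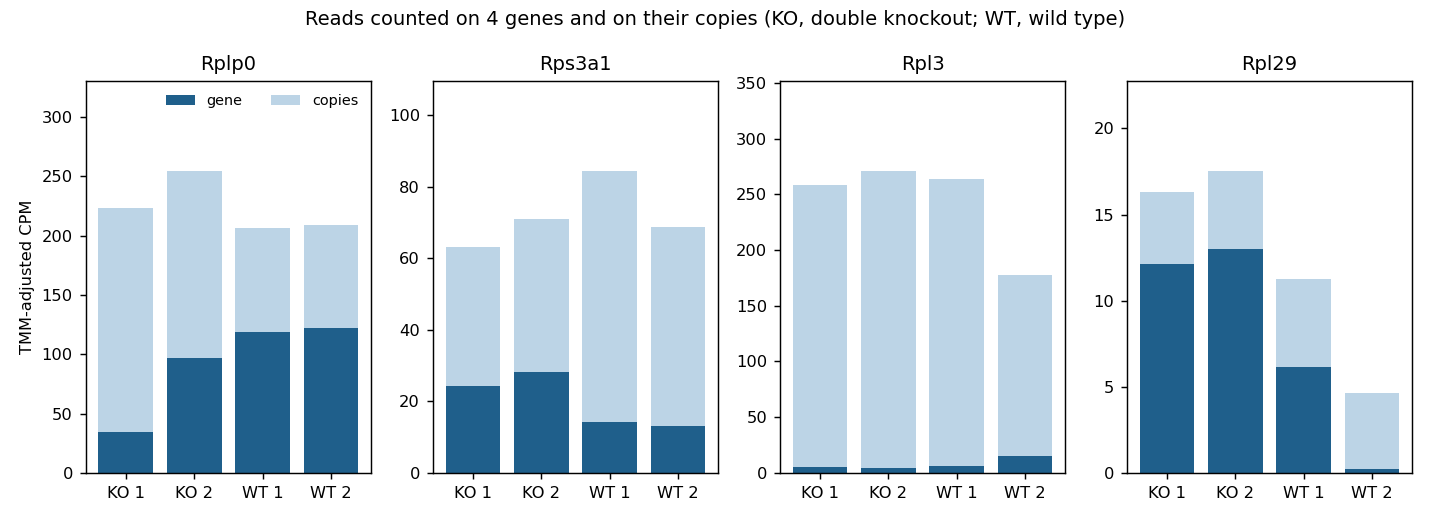
TMM-adjusted CPM on Rplp0, Rps3a1, Rpl3 and Rpl29 (dark) and on their summed copies (light), stacked, 1 bar per library and 1 panel per gene with its own axis. For Rplp0 the gene's part is 34.7 and 96.5 CPM in double knockout and 119 and 122 CPM in wild type, while the whole bars run from 206 to 254 CPM.

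Rpl15 had the smallest p among the large subunit genes, both alone and with the 10 of its 14 annotated copies that could be added. Rpl15 had 71.7 CPM in each double knockout library, against 52.0 and 49.4 CPM in the wild type libraries. The log2 fold change was 0.50 (SE 0.10, 95% interval 0.25 to 0.75, edgeR adjusted p = 0.146, DESeq2 adjusted p = 0.0615). With copies it had 79.4 and 80.3 CPM in double knockout and 56.9 and 54.3 CPM in wild type, a log2 fold change of 0.52 (SE 0.10, adjusted p = 0.142 by edgeR, DESeq2 adjusted p = 0.0454). Alone, it passed edgeR without double knockout library 1 (adjusted p = 0.0102) and without double knockout library 2 (adjusted p = 0.0171), and not without either wild type library.

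Several other large subunit genes with few reads took a different value once copies were added. Rpl28 was at -0.53 (SE 0.26) alone and 0.20 (SE 0.15) with copies, and Rpl38 at -0.35 (SE 0.35) and 0.11 (SE 0.16). Rpl23a, the binding site of nascent-chain factors at the tunnel exit, was at 1.11 (SE 0.56) alone and 0.14 (SE 0.13) with copies. Rpl24 was at 0.50 (SE 0.61) and 0.13 (SE 0.18). Rpl34, by contrast, nearly kept its value, at 0.44 (SE 0.38) alone and 0.48 (SE 0.17) with copies. None of these passed edgeR in either form. Rpl37, to which no copy was added, was at 0.42 (SE 0.42, edgeR adjusted p = 0.644). Rpl32 had 70.7 and 78.6 CPM in double knockout and 60.5 and 63.1 CPM in wild type, a log2 fold change of 0.27 (SE 0.11, adjusted p = 0.284 by edgeR). Rpl8, which has no copy, was at 247 and 265 CPM in double knockout and 273 and 261 CPM in wild type (-0.06, SE 0.11), and Rpl4 was at 0.18 (SE 0.11).

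Rpl5 and Rpl11 bind the smallest RNA of the large subunit and, when ribosome assembly fails, the p53 regulator MDM2. Rpl5 had 10.5 and 7.40 CPM in double knockout and 9.59 and 8.52 CPM in wild type, a log2 fold change of -0.01 (SE 0.22). Rpl11 had 2.26 and 1.71 CPM in double knockout and 2.36 and 1.45 CPM in wild type (0.07, SE 0.35). With copies they were at 0.11 (SE 0.12) and 0.03 (SE 0.11).

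Summing each gene with its copies narrowed the spread of the group. At least 1 copy was added in 72 of the 84 members tested in this form, and the others entered with the gene alone. The log2 fold changes then ran from -0.45 to 1.08, against -1.21 to 1.94 for genes alone, and their SD was 0.22, against 0.38. A size above 0.5 was left in 3 members, against 8. Rps27 was among these (0.87, SE 0.5), and Rps27rt, a member with an identical coding sequence, was not added to it. The sign changed in 18 members, 13 of them negative alone and positive with copies. Small subunit genes with copies had a median of 0.13 with 24 of 31 positive. Large subunit genes with copies had a median of 0.15 with 38 of 43 positive. For the whole group the picture was as follows. The median was 0.14, with 66 of 84 members positive (78.6%, against 51.2% of all genes). It was 0.19 without double knockout library 1, 0.07 without double knockout library 2, with 56 of 84 positive, and 0.07 when wild type library 2 was left out, with 54 of 84 positive. EdgeR called 0 of 84, against 0.0756% of all genes. In 10 members (11.9%, against 17.3% of all genes) the unadjusted edgeR p was under 0.05, and all 10 were higher in double knockout, as were 8.71% of all genes. DESeq2 called Rpl15 higher, against 3.5% of all genes called and 1.84% called higher. The other 9 were Rpl13a, Rpl29, Rpl32, Rpl34, Rps9, Rps14, Rps18, Rps25 and Rps27a, of which Rps9 had no copy added. The double knockout pair was above the wild type pair in 36 members (42.9%, against 25.8% of all genes) and below it in 7 (8.33%, against 25.3%). This summing was added after the single-gene values had been seen, and counting error is relatively smaller for larger sums.

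**Figure D3:**
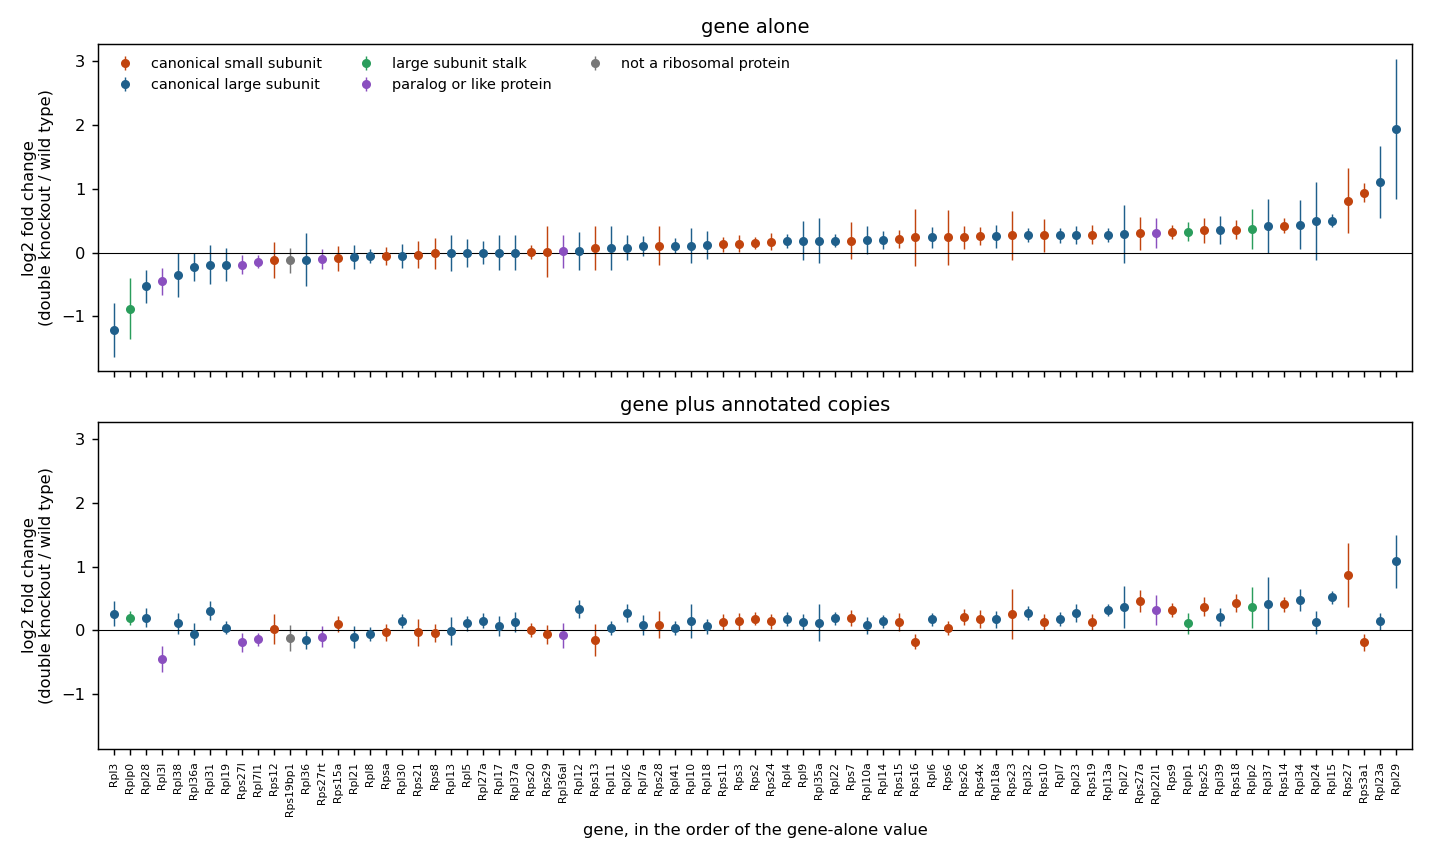
Log2 fold change, double knockout over wild type, of 81 of the 83 ribosomal protein genes tested, alone (top) and of the same genes with their copies (bottom), in the order of the upper panel. Points are fitted values, bars are 1 SE, and colours give the class. The values run from -1.21 to 1.94 for genes alone and from -0.45 to 1.08 with copies.

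The copies were also read as genes of their own. Of the 443 copies 128 passed the filter, 94 with a positive log2 fold change (73.4%, against 51.3% of all genes), with a median of 0.13, against 0.01 over all genes. EdgeR called 0 of them (0.075% of all genes), and 17 (13.3%, against 17.3% of all genes) had an unadjusted p under 0.05. DESeq2, which called 3.81% of all genes, called 4 of the 128, the higher Gm8730 and Gm9625 and the lower Rps3a3 and Gm8210. One copy of Rplp1, Gm11942, had 30.2 CPM in wild type library 1, against 0.442 CPM in wild type library 2 and 0.247 and 0.184 CPM in the double knockout libraries.

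Paralogs of ribosomal proteins can replace the usual subunit in certain tissues. Rpl3l, the form of Rpl3 in adult heart and skeletal muscle, has no near-identical copy. It had 3.81 and 3.36 CPM in the double knockout libraries, against 4.86 and 4.98 CPM in the wild type libraries. Both double knockout libraries were lower, with a log2 fold change of -0.45 (SE 0.21, adjusted p = 0.344 by edgeR). Per kb of transcript, Rpl3l stood at 0.764 and 0.721 times Rpl3 in double knockout, against 0.721 and 0.317 times in wild type. Set against Rpl3 with its copies, the ratio was 0.0145 and 0.0122 in double knockout and 0.0181 and 0.0275 in wild type.

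The other paralogs varied widely in level. Rpl7l1, a nucleolar relative of Rpl7, was at 49.7 and 52.6 CPM per kb in double knockout and at 56.9 and 55.7 CPM per kb in wild type. This was 0.992 and 0.938 times Rpl7 in double knockout, against 1.39 and 1.18 times in wild type. Set against Rpl7 with its copies, which hold most of the joint reads, the ratio was 0.376 and 0.348 in double knockout and 0.454 and 0.443 in wild type. Its log2 fold change was -0.14 (SE 0.10) and that of Rpl7 was 0.27 (SE 0.12, edgeR adjusted p = 0.338). Rpl22l1, which in mouse rises when Rpl22 is lost, had 3.56 and 3.06 CPM in double knockout and 2.68 and 2.69 CPM in wild type (0.31, SE 0.24). Per kb it stood at 0.0259 and 0.0211 times Rpl22 in double knockout, against 0.0212 and 0.0223 times in wild type. Rps27l, a p53 target in human cells, was at 15.5 and 13.5 CPM in double knockout and at 16.6 CPM in each wild type library (-0.19, SE 0.15). Per kb it stood at 25.2 and 15.2 times Rps27 in double knockout and at 54.2 and 31.7 times in wild type, a ratio that rests on the few reads of Rps27. Rps27rt, a member whose coding sequence is 100% identical to that of Rps27 over all 255 bases, was at 30.2 and 34.4 CPM per kb in double knockout and at 35.7 and 33.1 CPM per kb in wild type (-0.10, SE 0.16). Set against Rps27 and Rps27rt together, Rps27l stood at 0.986 and 0.747 times in double knockout and at 0.914 and 0.972 times in wild type. How reads matching both Rps27 and Rps27rt were counted is not known, and Rps27l has no near-identical copy. The joint ratio may therefore be too high by an unknown amount if such reads were left out. Rpl36al was at 0.02 (SE 0.26), Rpl36a at -0.22 (SE 0.22) and Rpl39 at 0.35 (SE 0.22). Rps19bp1, 748.0 kb from Mrtfa, had 5.43 and 6.55 CPM in double knockout and 6.49 and 6.47 CPM in wild type (-0.12, SE 0.20).

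**Figure D4:**
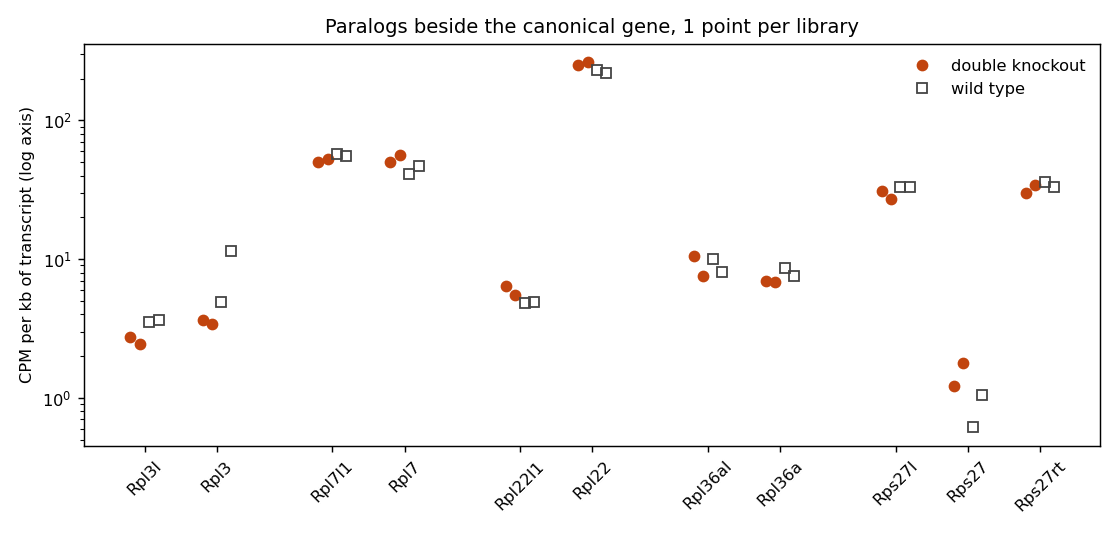
CPM per kb of transcript (log axis) of 5 paralogs, each left of its canonical gene, with Rps27rt beside Rps27, 1 point per library, filled circles for double knockout and open squares for wild type. Rpl22l1 lies far below Rpl22, Rps27l lies above Rps27 and about level with Rps27rt, and Rpl3 is highest in 1 wild type library, at 11.4 CPM per kb.

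A pyrimidine run near the start of transcription was found in many members. The run was not required to include the start itself, so the shares below are not counts of TOP motifs. In RefSeq promoters (GRCm38.p6) 66 members were matched, and 34 of them (51.5%) had 8 or more consecutive C or T on the coding strand, from 20 bases before to 30 after the annotated start. Of 27025 genes 5811 had such a run (21.5%). The windows of Rpl15, Rps9 and Rpl13a are shown as 3 of the 10 genes with an unadjusted edgeR p under 0.05 once copies were added. These 3 were not taken by a rule and the windows of the others are not shown, so they do not stand for the 10. The windows run from 10 bases before to 20 after the start, 5′ to 3′, with the longest pyrimidine run in capitals. They lie at chr14:18270967-18270996 (minus strand), chr7:3704031-3704060 (plus strand) and chr7:45128726-45128755 (minus strand).
Rpl15: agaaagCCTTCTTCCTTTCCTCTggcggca
Rps9: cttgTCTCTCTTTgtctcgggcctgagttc
Rpl13a: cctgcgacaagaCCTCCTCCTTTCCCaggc
In the Rpl13a window the run lies after the annotated start. A run of these letters is a description of the window and no evidence of regulation. Rpl13a, which in human cells also takes part in translational silencing, had 49.1 and 54.6 CPM in double knockout and 42.8 and 42.7 CPM in wild type (0.28, SE 0.11, edgeR adjusted p = 0.293).

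Genes around the ribosome were read for comparison. Over all genes tested the median log2 fold change was 0.01 with 51.3% positive, edgeR called 0.075%, DESeq2 called 3.81% and 17.3% had an unadjusted edgeR p under 0.05. Translation factors and other TOP messages had a median of 0.17, with 22 of 31 positive (71%), 0 called by edgeR and 7 (22.6%) with an unadjusted p under 0.05. DESeq2 called 1 of them, Eif4b, a cofactor of the helicase that opens messages for initiation, which was at 495 and 613 CPM in double knockout, against 338 and 365 CPM in wild type (0.66, SE 0.14, edgeR adjusted p = 0.154, DESeq2 adjusted p = 0.0134). Genes of ribosome biogenesis had a median of -0.04, with 23 of 56 positive (41.1%), 0 called by edgeR or DESeq2 and 6 (10.7%) with an unadjusted edgeR p under 0.05. Ncl, nucleolin, was at 724 and 843 CPM in double knockout and 689 and 659 CPM in wild type, and Ddx21, a nucleolar helicase, at 91.0 and 142 CPM in double knockout and 139 and 113 CPM in wild type. The median over biogenesis genes was -0.19 in double knockout library 1 and 0.10 in library 2, relative to the wild type mean.

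Regulators of ribosomal protein supply had a median of 0.05 in 24 genes, 14 of them positive (58.3%). EdgeR called 0, and 7 (29.2%, against 17.3% of all genes) had an unadjusted edgeR p under 0.05. DESeq2 called 2, against 3.81% of all genes, Mxi1, a MYC antagonist, and Deptor, an inhibitor of mTOR. Mxi1 had 53.6 and 64.5 CPM in double knockout, against 29.5 and 35.8 CPM in wild type (0.85, SE 0.16, edgeR adjusted p = 0.135, DESeq2 adjusted p = 0.00325). Deptor had 15.7 and 14.3 CPM in double knockout, against 8.18 and 8.48 CPM in wild type (0.85, SE 0.16, edgeR adjusted p = 0.136, DESeq2 adjusted p = 0.0147). Among 17 p53 targets the median was -0.03, with 8 positive (47.1%), edgeR called 0 and 7 (41.2%) had an unadjusted edgeR p under 0.05. DESeq2 called 2, against 3.81% of all genes. It called Trp53inp1 higher, at 130.2 and 157 CPM in double knockout and 50.6 and 66.8 CPM in wild type (1.29, SE 0.17, DESeq2 adjusted p = 5.56e-07). The cyclin Ccng1 was called lower, at 423 and 301 CPM in double knockout and 578.5 and 573 CPM in wild type (-0.67, SE 0.18, DESeq2 adjusted p = 0.0358). Of the subunit genes outside the symbol rule, Rack1 was at 415 and 469 CPM in double knockout and 418 and 373 CPM in wild type, while Fau, whose product is made as a fusion to a ubiquitin-like protein, had 1.13 and 0.673 CPM in double knockout and 1.02 and 0.764 CPM in wild type. Neither was called.

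Markers of cell types differed between the groups to varying degrees. Of the 12 cardiomyocyte markers 3 were positive, with a median of -0.17. The double knockout pair was below the wild type pair in 8 of them (66.7%, against 25.2% of all genes). In 0 of them was the unadjusted edgeR p under 0.05, against 17.3% of all genes. The 12 macrophage and leukocyte markers summed to 135 and 132 CPM in double knockout and to 105 and 107 CPM in wild type, with 10 positive and a median of 0.34, and all of them had enough reads to be tested. Smooth muscle and pericyte markers summed to 1656 and 1492 CPM in double knockout and to 4201 and 2771 CPM in wild type, with 0 of 10 positive. Erythroid markers summed to 464 and 806 CPM in double knockout and to 752 and 554 CPM in wild type, so the groups overlapped. Fibroblast markers had a median of -0.14 and endothelial markers a median of 0.18. The part of these cells in the ribosomal protein values was not tested.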

How the data were processed

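Heart RNA of 4 libraries was analysed, 2 double knockout and 2 wild type, grouped by the genotype in the titles. The deposited files hold raw counts of reads per gene, made by the authors with HTSeq on mm10, per the submitters' processing notes, which also name DESeq 1.10.1. The sources used here do not give the aligner, annotation release, strand setting or treatment of reads matching several places. Each file had 43346 gene rows and 0 that name no gene, and 42462 matched GENCODE M21. Counting intervals and floors cover counting error only, and the chi-square per gene was 36.1 within the double knockout pair and 15.2 within the wild type pair, above sampling noise.

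All genes were fitted with edgeR 4.0.16 in R 4.3.3 (filterByExpr, TMM, robust quasi-likelihood test, Benjamini-Hochberg over all genes, threshold 0.05). DESeq2 1.42.0 and limma-voom (limma 3.58.1) were alternatives, as were other scalings, filters, a replicate block and leaving out each library. Where that leaves 1 library in a group, it is assumed to vary like the other group. The fits were tested on simulated counts with known changes, where edgeR recovered 87% of 2-fold changes. The simulation gave all genes and both groups the same level of noise, unlike these libraries, so its recovery does not carry over to them. Copies were found with blastn 2.17.0 (word size 20) against GENCODE transcripts, assigned to their best member and summed before a second fit. Copies that are members themselves were not summed. Library medians are relative to the wild type mean, with 0.5 CPM added before the log.

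Members and lists were chosen with earlier results of these data known. Genes were named by rule: members called by any tool, the 8 highest and 8 lowest log2 fold changes, the 6 highest levels per length, paralog pairs, the stalk genes, Rpl5, Rpl11 and Rps19bp1. In each other list, genes called by edgeR or DESeq2 were named, or else the 2 with the highest mean, along with Fau and Rack1. Some genes that the rule takes are not reported here. All copies and Rpl13a, Rpl21, Rpl32, Rpl35, Rps14, Rps18, Rps25, Rps27a and Rps27rt were named after their values were seen.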

Additional observations from a re-analysis of the deposited data

How the results depend on the processing

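With the count of 0 ribosomal protein genes past the edgeR threshold, other settings gave 3 with no filter (Rpl3, Rpl15 and Rps3a1), 1 with DESeq2, 1 with gene plus copies in DESeq2 and 0 to 4 with a library left out, 4 without double knockout library 1 and 3 without double knockout library 2. For all genes (12), no filter gave 1514, DESeq2 526, gene plus copies in DESeq2 511 and leaving out a library 2 to 2795. For the companion lists (0), no filter gave 10, DESeq2 5, gene plus copies in DESeq2 5 and leaving out a library 0 to 27. With no filter, 3 of 85 members tested passed, against 1514 of 24928 genes. The fits without double knockout library 1 and without library 2 tested 83 and 84 members. In each, a smaller share of members passed than of all genes, whose shares are given with Rplp0 above. The median over members (0.15) was 0.22 with no composition factors, where the median of all genes was 0.08, and 0.19 with the stricter filter. It was 0.09 in the 36 tested members without a near-identical copy of the longest transcript, and 0.04 to 0.21 with a library left out. Most of those 36 members do have a copy by the coding sequence measure used above, among them Rpl28, with 4. In the 5 tested members without a copy by that measure, the median was -0.12, with 1 positive. With copies the median (0.14) was 0.07 to 0.19 with a library left out. The ratio of shares (1.16) was 1.12 to 1.20.

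The titles do not say whether libraries with the same replicate number are paired. The deviations of libraries numbered 1 correlated at -0.105, and a single correlation over so few libraries cannot settle the question. With a replicate block 0 members passed, the median was 0.15 and 2 of all genes passed. With the crossed pairing, added after seeing the data, 0 members and 3 of all genes passed.

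Summing copies turned the sign of Rpl28 to 0.20 (0.19 in DESeq2), Rpl3 to 0.26 (0.25), Rpl36al to -0.08 (-0.09), Rpl38 to 0.11 (0.10), Rpl5 to 0.11 (0.10), Rplp0 to 0.20 (0.19) and Rps3a1 to -0.19 (-0.20). With no composition factors Rpl5 was at 0.06 and Rpl8 at 0.01. With a library left out, the log2 fold change changed sign within -0.35 to 0.44 for Rpl10, -0.25 to 0.46 for Rpl11, -0.65 to 1 for Rpl24, -0.13 to 0.79 for Rpl34, -0.26 to 0.23 for Rpl36al, -0.01 to 1.04 for Rpl37, -0.29 to 0.21 for Rpl5 and -0.26 to 0.01 for Rps19bp1. Of the single-gene comparisons with other settings, 598 kept direction and side of the threshold, 28 reversed and 12 passed only there. The causes were not tested. In 21 members the mean was under 50 counts per library, and the 95% interval of the log2 fold change lay within -1 and 1 for 65 of 83 members.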
